A study of Mus musculus with 39 samples.

Results

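The 41 genes described here had transcripts in every intact mouse embryo at the 2-cell stage and almost none in any intact embryo at the 4-cell stage. They were chosen on CPM (the counts of a gene scaled to a library or embryo total of 1e+06), as the genes with at least 5 CPM in each of 5 intact 2-cell embryos and under 1 CPM in each of 4 intact 4-cell embryos, out of 55487 genes in the table. Of 45 genes inside both limits, 4 were left out by their symbols (Zscan4a, Zscan4f, Zscan4-ps3 and Obox3-ps3), which belong to families known for a burst of expression at the 2-cell stage. The intact embryos therefore chose the genes, and what they show is given as a description. The test was made in separated embryos, which had no part in the choice.

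All embryos were wild type, with no treatment named, and were taken at the 2-cell or the 4-cell stage. Polyadenylated RNA was copied with an oligo-dT primer and template switching, amplified by PCR and cut by tagmentation, so counts are reads and not molecules. An intact embryo gave 1 library, and a separated embryo gave 1 library per blastomere, the counts of which were summed: 5 intact and 5 separated 2-cell embryos, 4 intact and 5 separated 4-cell embryos, 39 libraries in all. Of the separated 4-cell embryos, numbers 2, 3 and 4 are labelled batch 1 with all other samples, and numbers 6 and 7 are labelled batch 2. The labels name no animals or litters and no culture after separation, so a p-value here sets a difference against embryo-to-embryo spread, part of which may be technical. Separation cannot be told apart from the smaller input per library and the number of libraries summed.

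A mouse embryo starts life on RNA that the oocyte stored. Most of that RNA is degraded around the 2-cell stage, while the embryo's own genome is switched on in a minor and then a major wave of transcription. A transcript that is present at the 2-cell stage and gone at the 4-cell stage can be a late-cleared maternal RNA or the product of a short zygotic burst, and counts per gene do not separate these sources. CPM is a share of the library, so a lower share and a smaller amount of RNA per embryo cannot be told apart either.

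Depth differed between groups. Intact embryos had 7.16 to 9.89 M counts (M stands for 1e+06) at the 2-cell stage and 2.74 to 4.19 M at the 4-cell stage, and separated embryos had 14.2 to 56.2 M and 13.0 to 103.2 M. In an intact 4-cell embryo 3 counts came to 0.715 to 1.10 CPM, so the limit of 1 CPM means a few reads at most. In separated embryos 3 counts came to 0.0291 to 0.230 CPM, so lower levels could be seen there. The stage labels fitted known genes: the 2-cell gene Zscan4d had a median of 106 CPM in intact and 77.1 CPM in separated 2-cell embryos, against 0.316 and 0.443 CPM at the 4-cell stage.

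The promoters of 27 of the 41 genes are in the RefSeq table for GRCm38.p6, and 4 are printed because they belong to genes that fell between the stages in separated embryos and because they differ in kind. Each runs from 250 bases before to 50 bases after the annotated start, on the strand of the gene, with CG dinucleotides in capitals. Gtsf2 (chr15:103448410-103448709, minus strand) and D16Ertd519e (chr16:70616175-70616474, plus strand) have few. Cenpv (chr11:62539212-62539511, minus strand) and Per3 (chr4:151044616-151044915, minus strand) have many.
Gtsf2: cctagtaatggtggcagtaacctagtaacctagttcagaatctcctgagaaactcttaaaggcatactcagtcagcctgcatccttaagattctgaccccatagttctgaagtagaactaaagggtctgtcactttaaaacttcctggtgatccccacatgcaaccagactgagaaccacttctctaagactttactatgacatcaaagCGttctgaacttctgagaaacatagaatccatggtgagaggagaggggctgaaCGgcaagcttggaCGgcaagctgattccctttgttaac
D16Ertd519e: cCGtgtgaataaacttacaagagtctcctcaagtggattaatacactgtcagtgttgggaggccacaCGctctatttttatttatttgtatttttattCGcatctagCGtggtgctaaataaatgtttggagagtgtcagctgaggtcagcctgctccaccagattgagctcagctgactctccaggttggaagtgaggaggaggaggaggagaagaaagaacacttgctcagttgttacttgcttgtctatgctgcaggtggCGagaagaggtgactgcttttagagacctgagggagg
Cenpv: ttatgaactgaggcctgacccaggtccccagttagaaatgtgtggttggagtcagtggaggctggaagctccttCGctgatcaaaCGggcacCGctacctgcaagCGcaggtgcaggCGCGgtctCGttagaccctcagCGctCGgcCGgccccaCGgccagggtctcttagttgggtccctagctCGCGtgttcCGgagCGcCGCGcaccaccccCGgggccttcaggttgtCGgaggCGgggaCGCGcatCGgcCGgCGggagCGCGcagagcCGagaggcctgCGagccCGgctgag
Per3: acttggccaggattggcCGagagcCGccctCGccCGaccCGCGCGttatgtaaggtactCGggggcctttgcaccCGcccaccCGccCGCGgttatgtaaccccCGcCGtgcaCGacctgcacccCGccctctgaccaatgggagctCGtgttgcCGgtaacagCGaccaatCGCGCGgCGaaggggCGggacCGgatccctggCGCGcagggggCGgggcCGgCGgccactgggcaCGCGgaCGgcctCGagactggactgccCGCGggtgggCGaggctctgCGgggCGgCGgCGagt
The count of CG dinucleotides was 3 in Gtsf2, 5 in D16Ertd519e, 30 in Cenpv and 41 in Per3. Both kinds of promoter are thus found among genes with the same course of expression.

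In the intact embryos that chose them, the 41 genes were at very different heights. The highest mean was that of D16Ertd519e, a long noncoding RNA, with 157 ± 91.5 CPM (mean ± SD, n = 5), and the lowest was that of the noncoding RNA Gm35996, with 11.4 ± 5.02 CPM. Summed over the 41 genes, the level was 787 to 2232 CPM in intact 2-cell embryos and 1.10 to 13.1 CPM in intact 4-cell embryos. At the 4-cell stage the highest count of any of the 41 genes in 1 embryo was 4 reads, and 6 genes had no read in any of the 4 intact embryos (Gm33301, Gm32567, Gm43348, Gm19299, Oas1h and 1700010D01Rik). The residual reads were unevenly placed: 28 of the 41 genes had a read in intact 4-cell embryo 4, against 13 in embryo 5, 5 in embryo 1 and 2 in embryo 3. Embryo 4 was also the deepest of the group, with 4.19 M counts, and embryo 3 the shallowest, with 2.74 M. Embryos 1 and 5 were equal in depth, at 3.76 M each, but not in genes with a read. The part of depth in these reads was not tested.

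The limits pass through a continuum. Just inside the lower limit of the 2-cell stage, the lowest intact embryo was at 5.17 CPM for Gm33301, 5.18 CPM for Gm19299 and 5.26 CPM for Themis. Just outside it were Gm4526 at 4.89 CPM and Gm33962 and Mdga2 at 4.91 CPM. At the 4-cell limit, D16Ertd519e, Vmn2r-ps61 and Gm8332 were inside with 0.954 CPM in their highest embryo, and Acot3 and Rora (1.06 CPM) and Gm13391 (1.10 CPM) were outside.

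**Figure D1:**
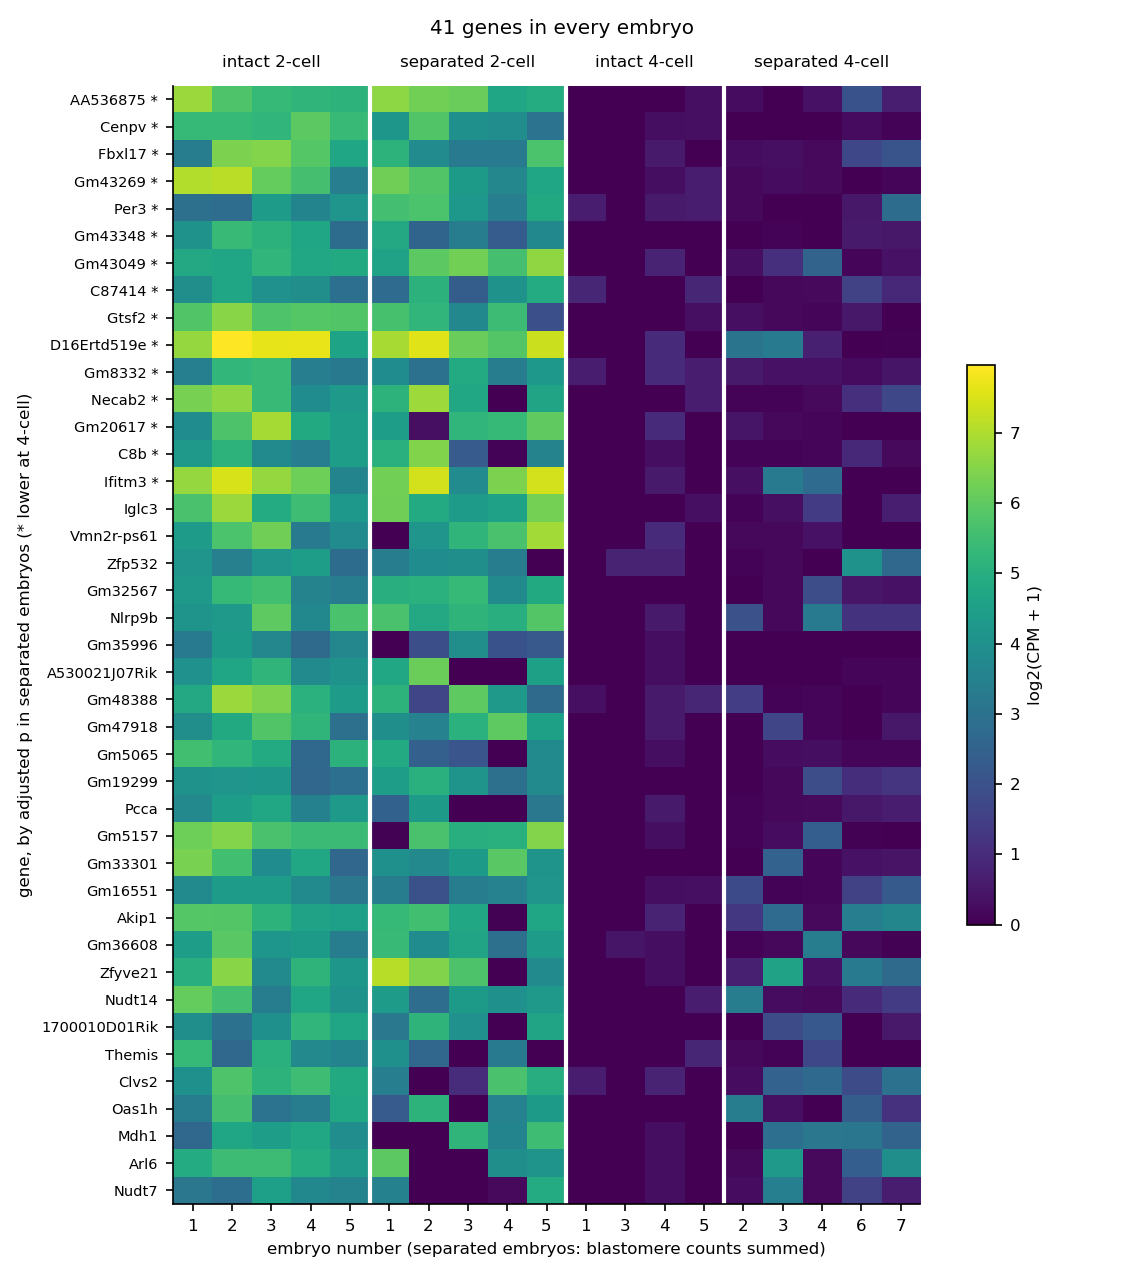
Level of the 41 genes (rows, ordered by adjusted p in separated embryos) in each of 19 embryos (columns, by group and embryo number), as log2(CPM + 1) in colour. Asterisks mark the 15 genes that were lower at the 4-cell stage in separated embryos. The intact 4-cell columns are dark by the choice of the genes, the separated 4-cell columns are dark with scattered brighter cells, and single dark cells appear in the separated 2-cell columns.

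In separated embryos, 15 of the 41 genes (36.6%) were lower at the 4-cell than at the 2-cell stage by the edgeR quasi-likelihood test with adjusted p under 0.05, and none was higher. Over all 10253 genes tested, 5.75% were lower (590 genes) and 4.90% were higher (502 genes). The log2 fold change was negative for all 41 genes, with a median of -5.35, against a median of -0.148 over all genes, of which 5445 were negative. It ran from -1.24 (Nudt7) to -8.78 (Necab2) over the 34 genes with more than 3 reads in the batch 1 embryos, and the 7 others are given by pooled counts. The median stayed at -5.35 when the 3 genes without a count in batch 1 were set at their bound. At an unadjusted p under 0.05 the genes lower at the 4-cell stage numbered 29 of 41, against 14.7% of all genes. DESeq2 called 31 of the 41 lower and none higher, against 14.0% lower and 9.26% higher over all genes. The fit takes batch as a term, so the 4-cell level in these fold changes is that of embryos 2, 3 and 4. Leaving out 1 of those 3 embryos lowered the count to 6 (without embryo 2), 7 (without embryo 3) or 5 (without embryo 4).

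In separated embryos the limits that chose the genes were met only in part. At least 5 CPM in each of 5 separated 2-cell embryos was reached by 17 of the 41 genes, against 37.0% of all genes tested. Under 1 CPM in each of 5 separated 4-cell embryos was found for 12, against 3.92% of all genes. Only Gm43269, Cenpv and Gm8332 met both limits, against 0.215% of all genes (22 of 10253). When the batch 2 embryos were left out, 6 of the 41 genes met both, against 71 of the 10253 genes tested. A looser reading is that the lowest separated 2-cell embryo was above the highest separated 4-cell embryo for 19 of the 41 genes, against 8.08% of all genes. None of the 41 separated the other way. All 41 had a higher mean in separated 2-cell than in separated 4-cell embryos.

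**Figure D2:**
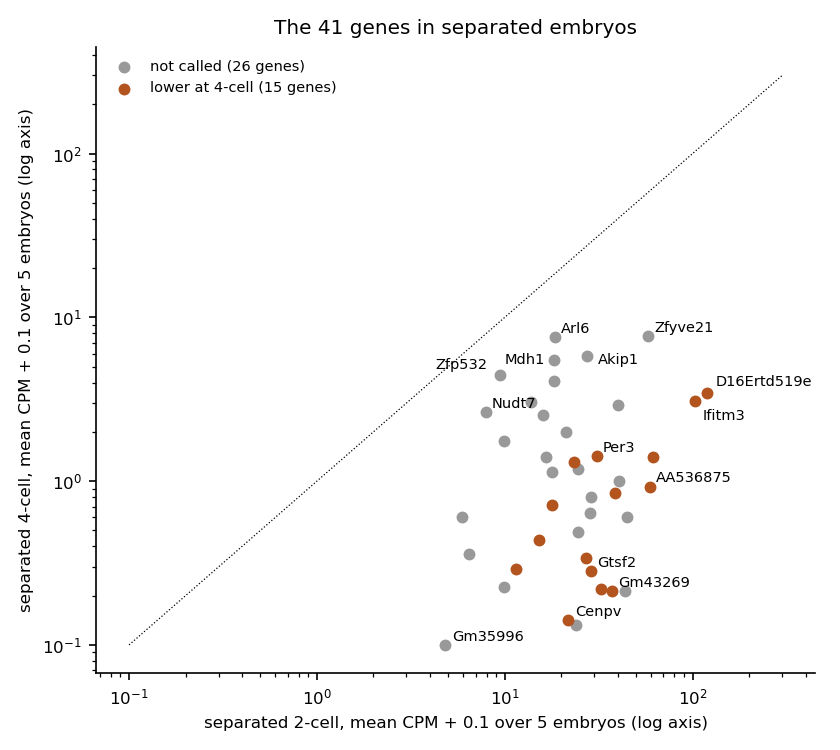
Mean CPM of the 41 genes over 5 separated 2-cell embryos (x) and 5 separated 4-cell embryos (y), with 0.1 CPM added and both axes logarithmic; 1 point is 1 gene and the dotted line marks equal means. All points lie below the line, and the 15 genes called lower (brown) lie among the others and include those with the 2 highest 2-cell means.

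Gtsf2, D16Ertd519e and C87414 fell between the stages in separated embryos, and the oocyte gene Nlrp9b did not pass the test. Gtsf2 is a relative of Gtsf1, a small zinc finger protein of germ cells that acts with piRNA-pathway proteins, and lies next to it on chromosome 15 (chr15:103438957-103448469, minus strand). Its level was 54.9, 93.2, 53.7, 57.7 and 54.4 CPM in intact 2-cell embryos 1 to 5, the highest in embryo 2. In separated 2-cell embryos 1 to 5 it was 48.9, 37.1, 12.1, 42.5 and 2.81 CPM. In separated 4-cell embryos 2, 3, 4, 6 and 7 it was 0.253, 0.129, 0.0767, 0.436 and 0.0115 CPM. The groups did not overlap, although embryo 5 was far lower than the other separated 2-cell embryos. Gtsf2 fell between the stages in separated embryos by a log2 fold change of -7.58 ± 1.81 (SE, edgeR, adjusted p = 0.0249).

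D16Ertd519e (chr16:70616425-70624824, plus strand) is a long noncoding RNA of 610 bases in its longest annotated form. Separated 2-cell embryos 1 to 5 had 119, 191, 70.2, 55.98 and 160.3 CPM of it. In separated 4-cell embryos 2, 3, 4, 6 and 7 it was at 7.34, 8.88, 0.613, 0 and 0.0346 CPM. Every 2-cell value was far above every 4-cell value, but embryos 2 and 3 kept a level above the limit of 5 CPM. The log2 fold change was -4.46 ± 1.07 (SE, edgeR, adjusted p = 0.0255).

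Nlrp9b (chr7:19991465-20073306, plus strand) encodes a NOD-like receptor of a subfamily known for expression in the oocyte. It stood at 50.03, 26.7, 35.4, 31.5 and 55.9 CPM in separated 2-cell embryos 1 to 5. The separated 4-cell embryos 2, 3, 4, 6 and 7 had 2.97, 0.129, 8.44, 1.23 and 1.26 CPM. The groups did not overlap and all 5 of the 2-cell embryos were above the limit, yet the log2 fold change of -3.48 ± 1.18 (SE) did not pass the edgeR test (adjusted p = 0.0882). Part of the annotated sequence (7.79% of its words of 50 bases) is shared with other genes, most with Nlrp9a.

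C87414 (chr5:93634993-93671551, minus strand) shares 58.5% of its 50-base words with other genes, most with Gm3259, so its counts may hold reads of its relatives. It had 5.94, 33.6, 4.104, 16.01 and 29.02 CPM in separated 2-cell embryos 1 to 5 and 0, 0.129, 0.153, 1.95 and 0.864 CPM in separated 4-cell embryos 2, 3, 4, 6 and 7. The groups did not overlap. C87414 fell by a log2 fold change of -7.63 ± 1.80 (SE, edgeR, adjusted p = 0.0237).

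Among genes of immunity, Ifitm3 and C8b fell, and Iglc3, Oas1h and Themis did not pass the test. Ifitm3 (chr7:141009586-141010770, minus strand) encodes an interferon-induced transmembrane protein that restricts the entry of viruses and is also a known marker of early germ cells. It had 76.7, 172, 13.3, 82.2 and 169 CPM in separated 2-cell embryos 1 to 5. The separated 4-cell embryos 2, 3, 4, 6 and 7 had 0.253, 8.69, 5.904, 0 and 0 CPM. Its 2-cell values ran over an order of magnitude, with embryo 3 the lowest, and embryos 3 and 4 kept some at the 4-cell stage. The log2 fold change was -4.48 ± 1.23 (SE, edgeR, adjusted p = 0.0467). That call held in 1 of 10 fits with an embryo left out, with adjusted p of up to 0.138, and was kept only without 2-cell embryo 3. It was also lost without the batch term (adjusted p = 0.0595).

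C8b, which encodes the beta chain of complement component 8, lies at chr4:104766317-104804548 (plus strand). Its values were 32.3, 87.05, 3.93, 0.0534 and 10.9 CPM in separated 2-cell embryos 1 to 5, with hardly a read in embryo 4. In separated 4-cell embryos 2, 3, 4, 6 and 7 they were 0.0633, 0.0643, 0.0767, 0.843 and 0.138 CPM, so the groups overlapped through 2-cell embryo 4. Against 3 reads in the batch 1 embryos, the ratio of pooled counts was 475 (95% counting interval 162 to 2303), which covers counting error only, and C8b was lower by edgeR (adjusted p = 0.0429). The call held in 2 of 10 fits with an embryo left out, those without 2-cell embryo 3 or 4, with adjusted p of up to 0.137. It was also lost with batch 2 left out (adjusted p = 0.0524) and with the blastomeres of an embryo thinned to equal totals (adjusted p = 0.0581). Without 2-cell embryo 2 the ratio was 178, and without any 1 of the other embryos of the ratio it was 459 to 680.

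Iglc3 is the constant region of an immunoglobulin lambda light chain, a gene of B cells. It was at 74.98, 28.3, 19.7, 22.3 and 77.02 CPM in separated 2-cell embryos 1 to 5 and 0.0633, 0.257, 1.61, 0 and 0.576 CPM in separated 4-cell embryos 2, 3, 4, 6 and 7. The groups did not overlap, and the log2 fold change of -6.23 ± 1.84 (SE) missed the threshold by edgeR (adjusted p = 0.0546). The B cell genes Cd79a and Cd79b had no count in any 2-cell embryo, intact or separated, and Ptprc, the pan-leukocyte marker, had none either. Iglc3 shares 22.3% of its 50-base words with other genes and overlaps the gene 2010309G21Rik on the opposite strand, from which its reads cannot be told apart, since no strand is stated.

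Oas1h, of the family of 2'-5' oligoadenylate synthetases, had 3.86, 34.8, 0, 10.5 and 19.1 CPM in separated 2-cell embryos 1 to 5. It had 9.23, 0.257, 0, 4.11 and 1.19 CPM in separated 4-cell embryos 2, 3, 4, 6 and 7, so the groups overlapped (log2 fold change -2.08 ± 2.19 SE, edgeR, adjusted p = 0.613). Themis, which acts in T cell development, had 14.99, 5.21, 0, 9.001 and 0 CPM in the 2-cell and 0.127, 0.0643, 2.33, 0 and 0.0115 CPM in the 4-cell embryos in the same order. Both groups held embryos without a read (log2 fold change -2.95 ± 2.41 SE, edgeR, adjusted p = 0.493).

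Of the genes with a role in all cells or in signalling, Cenpv, Fbxl17, Per3 and Necab2 fell. Cenpv (chr11:62524946-62539261, minus strand) encodes centromere protein V, a protein of the mitotic centromere and spindle. It had 17.4, 54.99, 15.1, 14.0 and 7.24 CPM in separated 2-cell embryos 1 to 5. In separated 4-cell embryos 2, 3 and 4 it had no read, and in embryos 6 and 7 it had 0.165 and 0.0461 CPM. No embryo of either stage crossed the limits of 5 and 1 CPM. With 3 reads set for the batch 1 embryos together, Cenpv was at least 375-fold lower at the 4-cell stage (edgeR adjusted p = 0.00968). Embryo 2 held 2734 of the 4717 reads at the 2-cell stage. Without it the bound was 215-fold, and without any 1 of the other 7 embryos it was 241 to 448-fold.

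Fbxl17 (chr17:63057452-63500017, minus strand) is an F-box protein, the part of a ubiquitin ligase that picks the target. Its level was 34.4, 13.4, 8.604, 8.48 and 51.4 CPM in separated 2-cell embryos 1 to 5, the highest in embryo 5. In separated 4-cell embryos 2, 3, 4, 6 and 7 it was 0.1897, 0.257, 0.153, 2.297 and 3.16 CPM. Both batch 2 embryos were above the 3 of batch 1, and all stayed below the 2-cell embryos. Fbxl17 fell by a log2 fold change of -6.88 ± 1.39 (SE, edgeR, adjusted p = 0.0122).

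Per3 (chr4:151003652-151044665, minus strand) is a period gene of the circadian clock. Its level was 47.4, 51.3, 17.8, 9.66 and 27.5 CPM in separated 2-cell embryos 1 to 5. It was 0.127, 0, 0, 0.417 and 6.05 CPM in separated 4-cell embryos 2, 3, 4, 6 and 7, with embryo 7 apart from the rest. No 4-cell embryo reached the lowest 2-cell embryo. Against 2 reads in batch 1 the ratio of pooled counts was 708 (95% counting interval 196 to 5849), and Per3 was lower by edgeR (adjusted p = 0.0136). Without 4-cell embryo 2, which held both reads, Per3 was at least 304-fold lower, and without any 1 of the other embryos the ratio was 460 to 922. Without the batch term, which brings embryos 6 and 7 into the 4-cell level, the log2 fold change was -4.68 and did not pass the edgeR test (adjusted p = 0.07295).

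Necab2 (chr8:119446719-119472640, plus strand) encodes a neuronal calcium-binding protein with EF hands. It had 34.3, 109.7, 25.5, 0.0178 and 23.9 CPM in separated 2-cell embryos 1 to 5. In separated 4-cell embryos 2, 3, 4, 6 and 7 it had 0.0633, 0.0643, 0.153, 1.105 and 2.33 CPM. A single read in 2-cell embryo 4 makes the groups overlap, although the other 4 embryos were at 23.9 CPM or more. The log2 fold change was -8.78 ± 2.24 (SE, edgeR, adjusted p = 0.0325).

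The rest of the called genes are noncoding, predicted or members of multicopy families. AA536875 had the smallest adjusted p of the 41. It has no single GENCODE M21 entry, and its levels were 96.95, 76.3, 69.1, 24.4 and 29.5 CPM in separated 2-cell embryos 1 to 5 and 0.1897, 0, 0.307, 3.04 and 0.587 CPM in separated 4-cell embryos 2, 3, 4, 6 and 7. It fell by a log2 fold change of -8.59 ± 1.46 (SE, edgeR, adjusted p = 0.00606), and embryo 6 was the highest of the 4-cell group.

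Gm43269 (chr5:119914938-119916846, plus strand), a noncoding RNA beside the T-box gene Tbx5 in the annotation, had 74.6, 54.3, 19.3, 11.8 and 24.8 CPM in separated 2-cell embryos 1 to 5. It had 0.127, 0.193, 0.153, 0 and 0.0921 CPM in separated 4-cell embryos 2, 3, 4, 6 and 7, all below 0.2 CPM. Its log2 fold change was -7.94 ± 1.64 (SE, edgeR, adjusted p = 0.0136). The noncoding Gm43049 had 23.1, 61.4, 75.3, 48.3 and 99.1 CPM in the separated 2-cell embryos, and 0.253, 1.09, 4.75, 0.0872 and 0.311 CPM in the 4-cell embryos in the same order (-5.06 ± 1.16 SE, edgeR, adjusted p = 0.0205).

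Gm20617, a noncoding RNA on chromosome 6, had 21.2, 0.262, 37.2, 39.7 and 64.3 CPM in separated 2-cell embryos 1 to 5 and 0.3795, 0.129, 0.0767, 0 and 0.0116 CPM in the separated 4-cell embryos. Only 2-cell embryo 2, at 0.262 CPM, was as low as the 4-cell embryos (-7.38 ± 1.90 SE, edgeR, adjusted p = 0.0338). It overlaps Gm20685 on the opposite strand. Gm43348, a noncoding RNA on chromosome 3, had 1 read in batch 1 and a ratio of pooled counts of 479 (95% counting interval 85.9 to 18940), and was lower by edgeR (adjusted p = 0.0187). Without 2-cell embryo 1 the ratio was 263, without 4-cell embryo 3 it was at least 104-fold lower, and without any 1 of the other embryos the ratio was 309 to 611.

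Gm8332 is annotated as a protein-coding gene of 1 exon, and 100% of its 50-base words occur in other genes, most in Gm8300, a gene of the 2-cell transcript list used here. Its reads may thus come from several copies. It had 13.7, 6.92, 28.4, 9.09 and 17.99 CPM in separated 2-cell embryos 1 to 5 and 0.506, 0.322, 0.307, 0.184 and 0.369 CPM in separated 4-cell embryos 2, 3, 4, 6 and 7, a narrow range in both groups. The log2 fold change was -5.41 ± 1.35 (SE, edgeR, adjusted p = 0.0304).

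Of the 15 calls, those of AA536875 and Cenpv held in all 10 fits with an embryo left out, with adjusted p of up to 0.0282 and 0.0322. The other 13 each lost the call without at least 1 of the 4-cell embryos of batch 1. Without 4-cell embryo 4 the adjusted p of Fbxl17 and of Per3 was 0.0538. Without an embryo the adjusted p reached 0.0588 for Gm43269, 0.068 for Gm43348, 0.0703 for D16Ertd519e, 0.0726 for C87414, 0.0756 for Gm43049, 0.0945 for Gtsf2, 0.1 for Gm8332, 0.108 for Necab2 and 0.115 for Gm20617. Their log2 fold changes stayed negative in each of these fits. Without a filter on low counts, C87414, Gm8332 and Gm43348 lost the call too.

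The 5 genes with the highest means in separated 4-cell embryos were Zfyve21, Arl6, Akip1, Mdh1 and Zfp532, and none of them passed the test between the stages. Zfyve21, with a FYVE domain that binds a membrane lipid, had the highest mean of the 41 in separated 4-cell embryos, 7.62 ± 9.25 CPM (mean ± SD, n = 5). Its values were 138, 86.9, 52.1, 0.0178 and 13.1 CPM in separated 2-cell embryos 1 to 5 and 0.632, 22.97, 0.307, 8.46 and 5.74 CPM in separated 4-cell embryos 2, 3, 4, 6 and 7. The 2-cell group held both the highest value and 1 read in embryo 4, and 4-cell embryo 3 was above 2-cell embryo 5. The log2 fold change was -3 ± 1.95 (SE, edgeR, adjusted p = 0.373).

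Arl6, a small GTPase of the primary cilium that is mutated in Bardet-Biedl syndrome, had 60.8, 0.0201, 0, 14.5 and 16.5 CPM in separated 2-cell embryos 1 to 5. It had 0.127, 18.5, 0.153, 4.15 and 14.6 CPM in separated 4-cell embryos 2, 3, 4, 6 and 7. With 2 embryos of the 2-cell group at or near 0, the groups overlapped (-1.64 ± 2.33 SE, edgeR, adjusted p = 0.724). Akip1, which binds the catalytic subunit of protein kinase A, had 39.6, 45.6, 26.4, 0.0356 and 25.2 CPM and 1.46, 5.86, 0.153, 9.65 and 11.5 CPM in the same order. Its 4-cell level was above 5 CPM in embryos 3, 6 and 7 (-3.56 ± 1.76 SE, edgeR, adjusted p = 0.231). Arl6 overlaps 4930547E14Rik, and Akip1 overlaps BC051019, on the opposite strand.

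Mdh1, the cytosolic malate dehydrogenase, had 0, 0, 36.2, 11.1 and 43.8 CPM in separated 2-cell embryos 1 to 5. It was at 0, 6.499, 7.97, 7.71 and 4.73 CPM in separated 4-cell embryos 2, 3, 4, 6 and 7. Each stage thus had embryos without a read, and 3 of the 4-cell embryos were above 5 CPM (-2.06 ± 2.45 SE, edgeR, adjusted p = 0.662). Pcca, the alpha subunit of the mitochondrial propionyl-CoA carboxylase, was low at both stages, with 0 to 19.03 CPM in separated 2-cell embryos and 0.0633 to 0.5403 CPM in separated 4-cell embryos. Its log2 fold change was -5.85 ± 2.53 (SE, edgeR, adjusted p = 0.169).

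Nudt14 and Nudt7 are hydrolases of the Nudix family, acting on nucleotide sugars and on coenzyme A. Nudt14 had 20.2, 6.11, 19.02, 15.1 and 18.8 CPM in separated 2-cell embryos 1 to 5, above 5 CPM in each, and 9.297, 0.193, 0.153, 0.911 and 1.65 CPM in the separated 4-cell embryos. A single 4-cell embryo, number 2, overlapped the 2-cell group (-2.29 ± 1.52 SE, edgeR, adjusted p = 0.385). Nudt7 had 10.3, 0, 0, 0.142 and 28.6 CPM and 0.1897, 9.84, 0.153, 1.96 and 0.5298 CPM, and 3 of its 2-cell embryos were under 1 CPM. Its log2 fold change was the nearest to 0 of the 41, -1.24 ± 2.48 (SE, edgeR, adjusted p = 0.812), and turned to 0.228 without 2-cell embryo 5.

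Clvs2, a clavesin of the clathrin trafficking pathway, had 9.63, 0, 1.01, 50.1 and 29.9 CPM in separated 2-cell embryos 1 to 5 and 0.1897, 4.697, 5.597, 2.52 and 7.01 CPM in separated 4-cell embryos 2, 3, 4, 6 and 7. The 4-cell embryos lay inside the range of the 2-cell embryos (-2.46 ± 2.04 SE, edgeR, adjusted p = 0.499). Zfp532, a zinc finger protein, had 9.12, 13.6, 14.7, 9.48 and 0 CPM and 0.0633, 0.129, 0, 16.1 and 5.34 CPM in the same order. Its 3 batch 1 embryos held 3 reads together, a ratio of pooled counts of 154 (95% counting interval 52.6 to 747), and it did not pass the edgeR test (adjusted p = 0.0758). The ratio was 299.9 without 4-cell embryo 3 and 109 to 167 without any 1 of the others. Of the batch 2 embryos, number 6 was above all 2-cell embryos and number 7 within their range.

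The pseudogene Vmn2r-ps61 of the vomeronasal receptor family had 0, 16.9, 36.3, 50.5 and 114 CPM in separated 2-cell embryos 1 to 5 and at most 0.307 CPM in any separated 4-cell embryo. Embryo 1 had no read, so the groups overlapped, and the log2 fold change was -7.92 ± 2.37 (SE, edgeR, adjusted p = 0.0622). Gm35996 had no read in any of the 5 separated 4-cell embryos and 0, 2.796, 14.2, 3.06 and 3.65 CPM in the separated 2-cell embryos, at least 54.4-fold lower in batch 1 (edgeR adjusted p = 0.0925). That bound was 32.9-fold without 2-cell embryo 3, and 35.01 to 70.9-fold without any 1 of the others. A530021J07Rik, a noncoding RNA, was at 26.2, 71.4, 0, 0 and 21.8 CPM in the 2-cell embryos. It had no read in batch 1, which was at least 397-fold lower on pooled counts (edgeR adjusted p = 0.0973). Embryo 2 held 3548 of the 4992 reads, and without it the bound was 157-fold, against 256 to 569-fold without any 1 of the others. Both Gm35996 and A530021J07Rik had separated 2-cell embryos without a read, and the part of these embryos in the missed threshold was not tested.

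Levels under 5 CPM in single separated 2-cell embryos made up 41 of 205 combinations of gene and embryo (20%), against 36.9% over all genes tested, and 26 of them (12.7% of the 205) were under 1 CPM, against 24.7%. Of the 41 genes, 17 (41.5%, against 37.0% of all genes) were at 5 CPM or more in 5 of 5 separated 2-cell embryos. In 4 embryos there were 12 (29.3% against 14.2%) and in 3 there were 8 (19.5% against 12.2%). In 2 there were 3 (7.32% against 12.5%) and in 1 there was 1, Gm35996 (2.44% against 12.1%). Per embryo, 30 to 37 of the 41 genes reached 5 CPM, the fewest in embryo 4. In the intact 2-cell embryos the number is 41 by the choice. At the 4-cell stage, 12 genes (29.3%, against 3.92% of all genes) were under 1 CPM in 5 of 5 separated embryos. In 4 embryos there were 11 (26.8% against 4.26%) and in 3 there were 9 (22% against 6.6%). In 2 there were 5 (12.2% against 11.3%). In 1 there were 4, Akip1, Clvs2, Nlrp9b and Mdh1 (9.76% against 14.7%). Per 4-cell embryo, 3 to 7 genes were at 5 CPM or more, in all 12.2% of combinations of gene and embryo against 67.3% over all genes tested.

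Single blastomeres show where those levels came from. In 2-cell embryos, both sisters had at least 1 CPM in 117 of 205 combinations of gene and embryo (57.1%), 1 sister had it in 62 (30.2%) and neither in 26 (12.7%). Over all genes tested these shares were 51.6%, 26.2% and 22.2%. D16Ertd519e, Gm32567 and Gm43049 were at 5 CPM or more in all 10 blastomeres. D16Ertd519e was at 101 and 179.9 CPM in the sisters of embryo 1 and 107 and 39.9 CPM in those of embryo 3. Gm43269 was at 75.2 and 72.3 CPM in the sisters of embryo 1, but at 42.3 and 0.162 CPM in embryo 3 and 0.0454 and 54.6 CPM in embryo 4. A gene could thus be even between sisters in 1 embryo and near 0 in 1 sister of another. The cause of such differences was not tested. Zfyve21 was at 178 and 0 CPM in the sisters of embryo 1 and 54.99 and 49.8 CPM in those of embryo 3.

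In 4-cell embryos the residual transcripts reached 1 CPM mostly in few blastomeres. Of 205 combinations of gene and embryo, 117 (57.1%) had no blastomere at 1 CPM or more, 49 (23.9%) had 1, 24 (11.7%) had 2, 7 (3.41%) had 3 and 8 (3.90%) had all 4. Among all genes tested, 14.4% of combinations had none and 49.1% had all 4. D16Ertd519e had 0.446, 2.03, 33.7 and 0.212 CPM in the blastomeres 1 to 4 of embryo 2 and 0.2602, 24.3, 0 and 3.402 CPM in those of embryo 3. Ifitm3 had 32.8, 0.191, 0 and 2.72 CPM in embryo 3 and 0, 0, 20.7 and 1.395 CPM in embryo 4, so 1 blastomere held most of it. Mdh1 was even in embryo 6, with 8.71, 6.97, 9.702 and 5.79 CPM in its 4 blastomeres, but not in embryo 7 of the same batch, with 9.25, 1.98, 0.618 and 4.03 CPM, nor in embryo 4 of batch 1, with 0, 0, 29.6 and 0.279 CPM. Blastomere libraries held 22.4 to 28.5 M counts in embryo 6 and 24.1 to 31.6 M in embryo 7, apart from 1 of embryo 7 with 2.02 M, while those of batch 1 held 2.40 to 5.23 M. The part of depth and of level in these patterns was not tested.

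**Figure D3:**
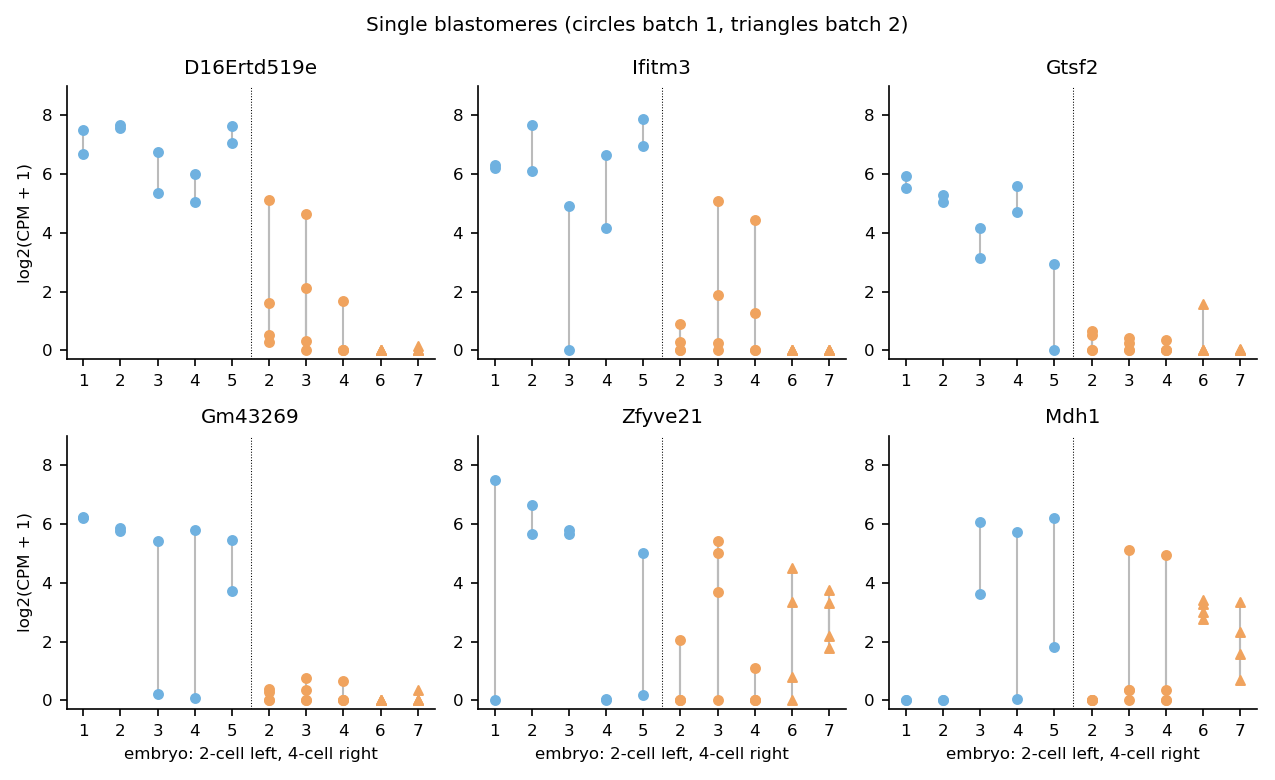
Level of 6 of the 41 genes in each blastomere, as log2(CPM + 1), with the blastomeres of an embryo joined by a line; 2-cell embryos are blue, 4-cell embryos orange, circles batch 1 and triangles batch 2. D16Ertd519e is high in every 2-cell blastomere, Gm43269 and Zfyve21 are high in 1 sister and near 0 in the other in some embryos, and Mdh1 is above 5 CPM in all 4 blastomeres of 4-cell embryo 6.

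Summed over the 41 genes, the level was 767 to 1579 CPM in the 10 separated 2-cell blastomeres and 23.6 to 142.9 CPM in the 20 separated 4-cell blastomeres. The groups did not overlap. The separated 4-cell embryos had 38.6 to 99.99 CPM, all above the intact 4-cell embryos (1.10 to 13.1 CPM), which the rule holds low. The 2-cell embryos covered similar ranges, 802 to 1508 CPM in separated and 787 to 2232 CPM in intact embryos. Since the rule used the intact embryos, the difference between intact and separated embryos is not tested here.

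**Figure D4:**
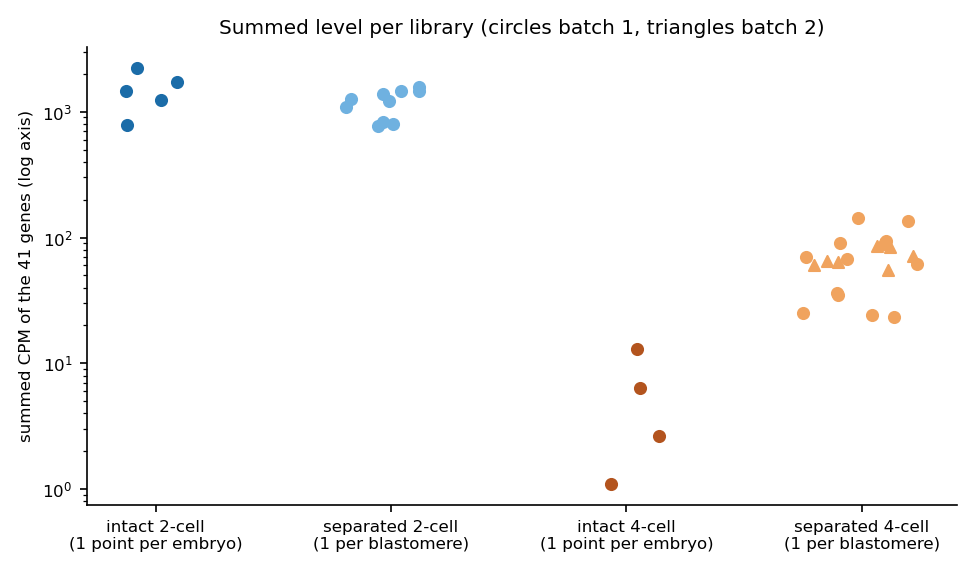
Summed CPM of the 41 genes per library on a log axis; a point is an intact embryo or a single blastomere, circles are batch 1 and triangles batch 2, and horizontal scatter is for display only. Separated 4-cell blastomeres lie at 23.6 to 142.9 CPM, between the intact 4-cell embryos (at most 13.1 CPM) and all 2-cell libraries (at least 767 CPM).

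Batch could be examined within the separated 4-cell embryos, 2 of batch 2 against 3 of batch 1. D16Ertd519e and Ifitm3 were lower in batch 2 by edgeR (adjusted p = 0.0289 and 0.0349). D16Ertd519e had 3 reads in batch 2 and 262 in batch 1, although batch 2 was deeper, a ratio of pooled counts of 373.8 (95% counting interval 126.5 to 1825). Ifitm3 had none in batch 2 and 216 in batch 1, and was at least 308-fold lower with 3 reads set for batch 2. Among all genes tested, 1.28% were lower and 0.692% were higher in batch 2, and none of the 41 was higher. With DESeq2 size factors in place of TMM, 75.3% of the batch calls over all genes were lower instead of 64.9%, and the same number of the 41 was called. DESeq2 itself called 9 of the 41, 5 lower and 4 higher, against 6.59% lower and 3.64% higher over all genes. No edgeR fit without 1 of the 5 embryos called both genes. For Zfp532, the mean was 0.0640 CPM in batch 1 and 10.7 CPM in batch 2, and its batch difference did not pass the edgeR test (adjusted p = 0.178).

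No gene of the 41 differed between the 5 separated 2-cell embryos when sister blastomeres gave the spread (edgeR, adjusted p under 0.05), against 0.0293% of all genes tested. At an unadjusted p under 0.05 there were 4 (9.76%), against 6.33% of all genes, and DESeq2 called 6 (14.6%), against 6.61%. The smallest edgeR p belonged to A530021J07Rik (p = 0.00213, adjusted p = 0.376). It was at 26.8 and 24.1 CPM in the sisters of embryo 1, 142 and 50.4 CPM in those of embryo 2 and 18.3 and 26.8 CPM in those of embryo 5, and had no read in the 4 blastomeres of embryos 3 and 4. Gm5157, next in order (adjusted p = 0.53), had 0 and 0.104 CPM in the sisters of embryo 1 and 26.6 CPM or more in the 8 others. Gm5157 shares 89.7% of its 50-base words with other genes, most with Gm8708.

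By annotation the 41 genes were a mix of coding and noncoding genes, set here beside all genes tested as a description. Of the 39 with a single GENCODE M21 entry, 23 are protein coding (59.0%, against 85.1% of the genes tested), 13 are long noncoding (33.3% against 9.04%), 2 are pseudogenes (5.13% against 4.94%) and 1 is an immunoglobulin segment. Their longest transcript had a median of 1435 bases and their exon number a median of 5, against 3038 bases and 8 exons. At most 3 exons were found in 16 of the 39 (41.03%), against 19.98%. In separated embryos, 9 of the 23 protein-coding and 5 of the 13 noncoding genes were lower at the 4-cell stage. The median log2 fold change was -4.89 for the protein-coding and -5.11 for the noncoding genes.

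The 39 genes with a GENCODE M21 entry were spread over 17 chromosomes, with 7 of them on chromosome 7, and no annotated neighbour of these 39 was itself among the 41. The nearest pair of them, Gm48388 (chr12:87980012-87980224) and Gm8332 (chr12:88249666-88250100) on chromosome 12, is made of multicopy sequences, with 81.1% and 100% of their 50-base words found elsewhere. At least 20% of words were shared for 7 genes (Zfp532, C87414, 1700010D01Rik, Gm8332, Gm5157, Iglc3 and Gm48388), of which C87414 and Gm8332 are among the 15. An exon overlapped another gene in 12, on the opposite strand only in 10, and no strand is stated for the counts.

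The median promoter of the set held fewer CG dinucleotides than that of all genes tested, which is given as a description. Over 33 promoters of 27 genes, the median ratio of observed to expected CG was 0.424, against 0.778 over 9286 promoters of genes tested, and the median GC content was 52.7% against 60.3%. At most 3 CG dinucleotides were present in 30.3% of them, as in Gtsf2 above, against 8.31%. The distribution had a lower quartile of 0.201 and an upper quartile of 0.848, so that promoters like those of Cenpv and Per3 are in it too. Of 6 short motifs searched on both strands, CCAAT (bound by NFY) was in 42.4% of the promoters against 39.6%, CACCC (part of KLF sites) in 54.5% against 60.3%, and AAGGTCA (the site of NR5A2) in 0 of 33 against 3.32%. GGATTA was in 6.06% against 6.34%, TATAAA in 6.06% against 7.42% and TGCACAC in 6.06% against 3.70%. No motif contains another, a match is not a binding site, and their absence says only that these letters are not in this window.

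**Figure D5:**
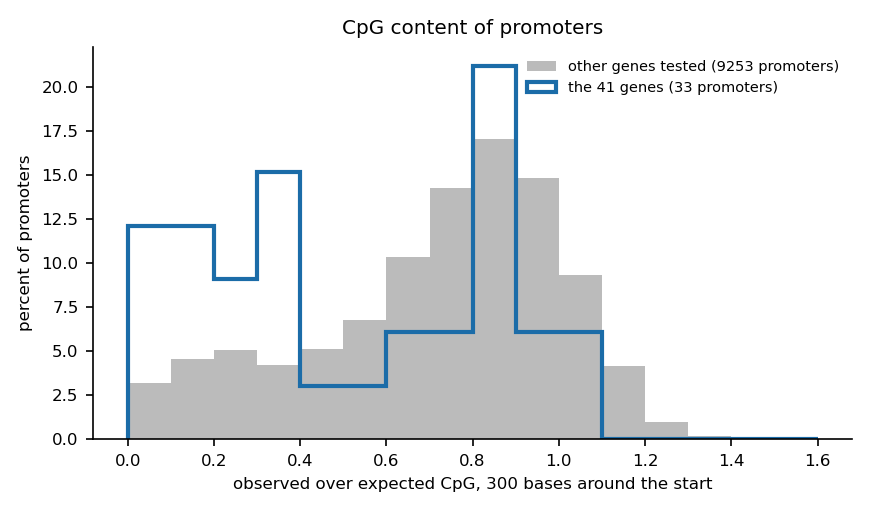
Percent of promoters (y) by the ratio of observed to expected CG dinucleotides over 300 bases (x), for 33 promoters of the 41 genes (blue outline) and 9253 promoters of other genes tested (grey). The blue outline has one mass below 0.4 and another at 0.8 to 0.9, where the grey bars have their highest.

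The wider programme of the 2-cell stage was read from 4 lists of genes in the same fit. The shares over all 10253 genes tested were 5.75% lower and 4.90% higher by edgeR, and 14.0% and 9.26% by DESeq2. At an unadjusted p under 0.05, edgeR had 14.7% of all genes lower. Of 58 maternal oocyte transcripts tested, 28 were lower and none higher at the 4-cell stage in separated embryos (median log2 fold change -3.36), with the oocyte gene Tcl1 at -5.87 ± 0.46 and Btg4, an adaptor of the CCR4-NOT deadenylase, at -5.005 ± 0.48 (SE). Of 49 zygotic 2-cell genes, 20 were lower and none higher (median -2.53), among them Zfp352 at -6.14 ± 1.30 and Zscan4d at -5.46 ± 1.56. Of 32 regulators of genome activation, 4 were higher and none lower (Tead4, Klf5, Dppa2 and Smarca5; median 0.358). Of 43 factors of maternal RNA decay, 5 were lower (Btg4, Pan3, Cnot7, Dcp2 and Cnot6l), and the median over the list was -0.448. DESeq2 called 35 maternal genes lower and none higher, 27 zygotic genes lower and 1 higher, and 1 regulator lower, and at an unadjusted p under 0.05 edgeR had 0 maternal and 3 zygotic genes higher and 1 regulator lower. Only Nlrp9b among the 41 is on the maternal list and only Gtsf2 on the zygotic list.

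Markers of other cell types were measured as sums over lists, each led by 1 or 2 genes. Summed CPM of 16 cumulus and granulosa cell markers was 10.5 to 65.1 in intact and 0.996 to 41.8 in separated 2-cell embryos, and 24.2 to 39.4 and 24.2 to 88.9 at the 4-cell stage. That sum overlapped, in separated 4-cell embryos, the 38.6 to 99.99 CPM of the 41 genes, and it was led by Amhr2, the receptor of anti-Müllerian hormone, with a mean of 35.9 CPM. Foxl2, a defining factor of granulosa cells, had a count in that group and none in the 3 others. Inha, Inhba, Has2, Ptgs2, Ptx3 and Nr5a1 had no count in separated 4-cell embryos. For 16 blood markers the sum was 4.85 to 27.1 and 4.23 to 27.9 at the 2-cell stage, and 1.86 to 19 and 2.85 to 50.7 at the 4-cell stage, where the haemoglobin gene Hba-a1 led. Of the same list, Hbb-bt, S100a8 and S100a9 had no count in any group, and Hbb-bs and Alas2 had counts in separated 4-cell embryos only. Sperm markers (11) summed to 35.7 to 68.6 and 18.1 to 95.6, then 7.19 to 31.8 and 13.1 to 35, led by Odf2 and Ldhc in each group, while the protamine Prm1 was at 0 in all 4 groups and Prm2 had a mean of 8.25 CPM in intact and 4.38 CPM in separated 2-cell embryos. Markers of oviduct and fibroblasts (12) reached at most 17 CPM in any embryo, and Col1a1 and Col3a1 had no count in any group. The part of these cells in the levels of the 41 genes was not tested.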

How the data were processed

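Per the submitters' processing notes, Trim Galore 0.6.10, STAR 2.7.3a and RSEM 1.2.28 were used with the build GRCm38 (mm10), and the annotation and strandedness are not given in the sources used here. The authors deposited expected counts per gene and library, and 12.6% of the values above 0 had a fractional part. Values were rounded and summed over blastomeres, so that 39 libraries became 19 embryos. CPM is per total counts.

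The members, gene lists and tests were chosen with earlier results of these data known. The edgeR 4.0.16 quasi-likelihood F-test (R 4.3.3) was fitted to the 10 separated embryos with stage and batch as terms, TMM scaling and Benjamini-Hochberg adjustment at 0.05 over 10253 genes with at least 1 CPM in at least 4 of the 9 intact embryos, a filter that every member passes by the rule. The batch 2 samples are all separated 4-cell embryos. The biological coefficient of variation was 1.24. SE was taken as the size of the log2 fold change divided by the root of the F statistic. Differences between 2-cell embryos were tested with sister blastomeres as replicates. Both tests were tested on simulated data.

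Genes named are the 20 named members highest in intact 2-cell embryos, the 5 highest in separated 4-cell and 5 lowest in separated 2-cell embryos, list members, and those called in the stage, batch or embryo tests or first by p. Genes near the limits were named by distance from them. The other genes were named after their values were seen. A fold against no reads sets 3 reads for the batch 1 group as a bound, and one against 1 to 3 reads is a ratio of pooled counts with an exact binomial interval. Annotation came from GENCODE M21, promoters from RefSeq GRCm38.p6, and shared sequence was measured as the share of a gene's 50-base words found in transcripts of other genes. Alternatives were DESeq2 1.42.0 and its size factors, other filters and limits, all 19 embryos in the fit, no batch term, batch 2 left out, thinned totals, a replicate block and each embryo left out. Other steps ran in Python 3.11.15 with pandas 2.3.3, scipy 1.17.1, numpy 2.4.6 and matplotlib 3.10.9. No pair of libraries was identical. Of the list of RNA decay factors, the genes that were lower are given, and a further result is not reported here.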

Additional observations from a re-analysis of the deposited data

Results flagged for a closer look

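Among 70 combinations of gene and separated group whose highest embryo reached 1 CPM, 16 had 1 embryo that stood apart from the others by Dixon's test at 95%, where chance marks about 1 in 20 groups of normally spread values. These CPM values are skewed and hold zeros, so that share is no measure for them, and nothing is read from the number. In each case the odd embryo was the highest of its group: 12 were separated 4-cell and 4 separated 2-cell embryos. At the separated 4-cell stage, embryo 2 was apart for Nudt14 (9.3 CPM in embryo 2, the others at 0.153 to 1.65 CPM) and Gm48388 (1.71 CPM in embryo 2, the others at 0 to 0.0921 CPM). At the separated 4-cell stage, embryo 3 was apart for Nudt7 (9.84 CPM in embryo 3, the others at 0.153 to 1.96 CPM), Gm47918 (2.19 CPM in embryo 3, the others at 0 to 0.415 CPM) and Gm33301 (4.7 CPM in embryo 3, the others at 0 to 0.346 CPM). At the separated 4-cell stage, embryo 4 was apart for Themis (2.33 CPM in embryo 4, the others at 0 to 0.127 CPM), Gm5157 (4.22 CPM in embryo 4, the others at 0 to 0.193 CPM) and Gm43049 (4.75 CPM in embryo 4, the others at 0.0872 to 1.09 CPM). It was also apart for Gm32567 (2.68 CPM in embryo 4, the others at 0 to 0.397 CPM) and Gm36608 (9.12 CPM in embryo 4, the others at 0.0346 to 0.129 CPM). At the separated 4-cell stage, embryo 6 was apart for AA536875 (3.04 CPM in embryo 6, the others at 0 to 0.587 CPM). At the separated 4-cell stage, embryo 7 was apart for Per3 (6.05 CPM in embryo 7, the others at 0 to 0.417 CPM). Among separated 2-cell embryos, the one apart was that of Cenpv (55 CPM in embryo 2, the others at 7.24 to 17.4 CPM), Arl6 (60.8 CPM in embryo 1, the others at 0 to 16.5 CPM) and Gm35996 (14.2 CPM in embryo 3, the others at 0 to 3.65 CPM). The same held for Gm33301 (59.4 CPM in embryo 4, the others at 12.5 to 19.1 CPM).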

How the results depend on the processing

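The 15 genes lower at the 4-cell stage in separated embryos numbered 31 with DESeq2, and 5 to 16 with 1 embryo left out (6, 7 and 5 without 4-cell embryo 2, 3 or 4). With at least 10 CPM at the 2-cell stage as limit they were 8 of 18, and 1 of 6 among genes without a read at the 4-cell stage. With at least 2 CPM at the 2-cell stage they were 22 of 82 (26.8%), and with under 2 CPM at the 4-cell stage 20 of 65 (30.8%). These shares compare with 36.6% of the 41 genes. The other alternatives, apart from the fits on embryos 2, 3 and 4 given below, gave 15 to 22 of the 41. The 3 genes inside both limits became 6 without batch 2, where the number over all genes tested went from 22 to 71. They were 1 of 18, 0 of 6 and 5 of 65 with limits of 10 CPM, no read and under 2 CPM. With 1 embryo left out they were 3 to 6 (5 and 6 without 4-cell embryo 3 or 4). The 2 batch calls became 9 with DESeq2 and 0 to 1 with 1 embryo left out. The 0 calls between 2-cell embryos became 3 without a filter and 6 with DESeq2, and stayed at 0 with any embryo left out.

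Same-numbered embryos of the 2 stages did not deviate together (correlations -0.00805, -0.00809 and -0.0121), and pairs with unlike numbers had -0.0356 to 0.0271. The labels do not say whether the numbers pair embryos, and correlations near 0 for every pair cannot decide it. A fit of embryos 2, 3 and 4 of each stage with the replicate number as a block called 0 of the 41 (17 at an unadjusted p under 0.05) and 21 of all genes. The same embryos without the block, an alternative chosen after seeing the data, gave 2. Under the block the log2 fold change turned positive for Clvs2 (1.38), Arl6 (2.35), Pcca (1.13) and Nudt7 (5.11). Without the block on these embryos it was 0.23 for Arl6 and 5.83 for Nudt7, and with 1 embryo left out Nudt7 ranged from -5.46 to 0.228, the latter without separated 2-cell embryo 5.

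Calls in the lists were 9, 0, 0 and 1 under the block (maternal, zygotic, regulators, decay) and 11, 5, 0 and 1 without it on the same embryos. With 1 embryo left out they ranged from 21 to 30, 11 to 21, 1 to 4 and 3 to 7. Regulators had 2 calls without a filter, 7 with DESeq2 and 2 without batch 2, and decay factors had 3 without a filter and 10 without a batch term. The cause of these changes was not tested. Per gene and alternative, 578 results were as reported, which includes genes that stayed uncalled. Calls were lost in 82 cases and gained in 34, and 7 fold changes changed sign. The lost calls were all among the called genes, which had 22 alternatives each. Depth limits the intact 4-cell embryos, where 3 reads are 0.715 to 1.10 CPM. Most of the stage calls were lost when any 1 of the 3 batch 1 embryos at the 4-cell stage was left out, and the reason was not tested.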
